A study of Mus musculus with 27 samples.

Results

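Collagens are the secreted triple-helical proteins of the extracellular matrix, and their genes are named Col, a type number and a chain number. All protein-coding genes with such a name in the GENCODE M21 mouse annotation were taken from the count matrix, which gave 44 collagen genes of 55487 rows. All 44 had at least 10 counts in at least 4 libraries and were among the 20271 genes tested. By the structure of their products, 11 were fibrillar, 8 belonged to basement membranes, 6 formed beaded filaments, 9 were fibril-associated, 4 were transmembrane and 6 made other networks or had other structures.

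The fibrillar chains assemble into the banded fibres that give connective tissue its strength. In the brain these fibres are sparse, and fibroblasts of the meninges, the membranes around the brain, are their best-known source. Type IV collagen forms the sheet-like scaffold of basement membranes, which surround every brain capillary and underlie the outer brain surface, and types XV and XVIII are attached to such membranes. The dissection of a brain region can carry along more or less of the meninges, and markers of their fibroblasts are given beside the collagens. In bulk tissue, fewer cells of a type and less RNA per cell cannot be told apart.

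RNA came from cortex and hippocampus of male C57Bl/6J wild-type mice, 8 weeks old, which had received 1 of 3 infusions into the right lateral ventricle through an osmotic pump for 14 days at 0.25 µl per hour. The infusions were PBS, human control IgG (pCtrl, which the sample notes call a non-reactive monoclonal and the methods of the study IgG from healthy serum) and affinity-purified autoantibodies from plasma of a patient with anti-IgLON5 disease (α-IgLON5), which bind a neuronal surface protein. By the study's account the sequenced tissue was taken from the hemisphere opposite to the cannula. There were 5 PBS, 5 pCtrl and 4 α-IgLON5 cortex libraries and 5 PBS, 4 pCtrl and 4 α-IgLON5 hippocampus libraries. All α-IgLON5 libraries therefore concern the autoantibodies of a single patient, and the control groups share the surgery and the pump.

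Libraries held 19385642 to 58550621 counted reads. The labels call the cells neurons, but markers of astrocytes, oligodendrocytes, microglia, endothelium and pericytes were present in all 27 libraries, so that the material is whole tissue. Levels are given as CPM, counts scaled to a common library total. Regional markers separated the tissues: the 6 cortical markers summed to 364.8 to 641 CPM in cortex and 130 to 274 CPM in hippocampus, and the 6 hippocampal markers to 241 to 361 CPM and 563 to 994 CPM. In the pCtrl hippocampi numbered 10 and 37 the hippocampal sum was lowest (563 and 569.9 CPM, others 713 to 994) and the cortical sum highest (228 and 274 CPM, others 130 to 194). Choroid plexus was close to absent, with Ttr, its classical marker, at no more than 3.31 CPM in cortex and 4.27 CPM in hippocampus. In both libraries numbered 9, from α-IgLON5 cortex and hippocampus, the 16 meningeal fibroblast markers together reached only 91.4 and 69.2 CPM, against 192 to 553 CPM in the other cortex and 154 to 394 CPM in the other hippocampus libraries. The number that opens each sample name occurs once per tissue and may be the mouse, although the labels do not say so.

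Of the collagen genes, those for type IV collagen stand in pairs that share a start region and point away from each other. The members of a pair varied together in 2 of the 3 pairs. Whether the arrangement has a part in this was not tested, and it is shown as a description. The start sites of Col4a1 (minus strand) and Col4a2 (plus strand) overlap by 22 bases at chr8:11312805-11312826 of GRCm38, within the first exons of both genes. On the plus strand, the overlap reads as follows, with a GGGCGG box in capitals.
Col4a1 and Col4a2: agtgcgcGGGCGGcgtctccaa
Col4a3 and Col4a4 start 71 bases apart on chromosome 1, and Col4a5 and Col4a6 start 1308 bases apart on the X chromosome. The bases just before the starts of Col4a5 (chrX:141475169-141475384, plus strand, up to the first annotated exon) and Col4a6 (chrX:141474077-141474326, minus strand) are given 5′ to 3′ from RefSeq on GRCm38.p6. The window of Col3a1, a fibrillar gene of the meningeal pattern described further on, is shown with them (chr1:45311288-45311537, plus strand). Capitals mark the TATAAA box in Col3a1, the CCAAT box in Col4a5 and, read on the other strand, the GGGCGG box in Col4a6.
Col4a5: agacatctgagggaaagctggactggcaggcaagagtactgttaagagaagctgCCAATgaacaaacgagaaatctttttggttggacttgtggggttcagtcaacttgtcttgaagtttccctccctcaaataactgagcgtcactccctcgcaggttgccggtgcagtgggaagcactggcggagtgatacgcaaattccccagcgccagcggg
Col4a6: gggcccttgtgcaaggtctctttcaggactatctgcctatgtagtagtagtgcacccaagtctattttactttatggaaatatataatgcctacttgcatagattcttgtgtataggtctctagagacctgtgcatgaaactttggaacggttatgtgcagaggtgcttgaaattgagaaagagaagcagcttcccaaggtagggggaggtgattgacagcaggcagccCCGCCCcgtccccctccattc
Col3a1: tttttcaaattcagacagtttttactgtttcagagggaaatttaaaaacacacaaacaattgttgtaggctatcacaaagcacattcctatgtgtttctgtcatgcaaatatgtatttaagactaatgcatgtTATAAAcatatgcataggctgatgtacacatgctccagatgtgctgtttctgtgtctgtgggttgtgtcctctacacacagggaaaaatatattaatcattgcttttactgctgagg

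RefSeq windows from 250 bases before to 50 after the start were found for 35 of the 44 collagens, the others being Col1a1, Col2a1, Col4a3, Col5a2, Col9a3, Col12a1, Col14a1, Col22a1 and Col26a1. On either strand, GGGCGG was present in 22 of the 35 (62.9%) and in 35.7% of 32851 windows of all genes. CCAAT was present in 12 (34.3%, 37.4% of all windows) and TATAAA in 5 (14.3%, 13.6% of all windows). The windows of Col4a1 and Col4a2 held 74.0% and 73.7% G and C, that of Col3a1 37.7%, and the median over all genes was 52.7%. A match is a description of the letters only.

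Levels are compared between genes as CPM per kilobase of annotated exon. Averaged over the 14 cortex libraries, the highest were Col6a1, a chain of the beaded filaments of type VI collagen, at 14.7, followed by the basement membrane chains Col4a2 (9.37) and Col4a1 (7.73) and the minor fibrillar chain Col5a1 (7.49). Across single cortex libraries Col6a1 spanned 10.9 to 18.2, Col4a2 6.82 to 12.1, Col4a1 5.4 to 10.8 and Col5a1 5.24 to 10.9, so that neighbours in this order overlapped. The chains of type I collagen, the major fibre of connective tissue, averaged 3.97 (Col1a1) and 3.59 (Col1a2), and Col3a1 of type III collagen averaged 1.07. In the 13 hippocampus libraries the order began with Col4a2 (11.8), Col6a1 (10.4), Col4a1 (9.46) and Col25a1, a transmembrane collagen of neurons (6.49). At the low end in cortex were Col17a1, a component of epithelial attachment sites, at 0.0462 and Col4a3, a chain known from kidney basement membranes, at 0.0383.

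The sum over the 8 basement membrane collagens was 111 to 193 CPM in cortex and 149 to 249.9 CPM in hippocampus. Of this sum, Col4a1 and Col4a2 made up 77% to 88.7% in cortex and 76.4% to 86.4% in hippocampus. The 11 fibrillar collagens summed to 128 to 368 CPM and 142 to 288 CPM, of which Col1a1, Col1a2 and Col3a1 made up 6.04% to 50.4% in cortex and 12.3% to 52.2% in hippocampus. The type IV pair thus supplied most of the basement membrane sum in every library, whereas the share of the fibrillar trio had a median of 37% in cortex and 39.6% in hippocampus and varied widely between libraries.

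Col1a1 was measured in the 5 cortex PBS libraries, in the order of their numbers 14, 32, 33, 38 and 74, at 10.9, 14.3, 22, 57.4 and 15.9 CPM. In cortex pCtrl libraries (numbers 10, 11, 15, 37 and 75) it was at 21.9, 23.7, 40.5, 22.3 and 27.5 CPM, and in cortex α-IgLON5 libraries (numbers 8, 9, 16 and 17) at 41.3, 2.27, 24.2 and 40.4 CPM. The α-IgLON5 libraries hold the lowest cortex value and 2 of the 4 highest, and the 3 groups overlap. In hippocampus, Col1a1 was at 12.7, 18.2, 18.8, 31.3 and 10.7 CPM in PBS, at 30.6, 25.9, 28.6 and 34.3 CPM in pCtrl (numbers 10, 15, 37 and 75) and at 49.2, 6.70, 16.4 and 45.2 CPM in α-IgLON5. In hippocampus the α-IgLON5 group reached beyond the controls on both sides.

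Col1a2 encodes the second chain of type I collagen. Its cortex values were 22.6, 31.4, 43.9, 91.3 and 31.9 CPM in PBS, 39.1, 34.4, 67.0, 39.4 and 50.1 CPM in pCtrl and 62.0, 4.04, 41.0 and 67.2 CPM in α-IgLON5. Its hippocampus values were 21.8, 38.0, 34.9, 57.4 and 22 CPM in PBS, 53.6, 46.1, 54.8 and 59.8 CPM in pCtrl and 71.3, 7.38, 25 and 73.8 CPM in α-IgLON5. Per kilobase of exon, the ratio of Col1a1 to Col1a2 had a median of 1.07 in cortex (0.859 to 1.31) and 1.08 in hippocampus (0.908 to 1.72), while the level of either gene differed up to 18.2-fold between libraries of 1 group.

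Col3a1, the single chain of type III collagen, was at 4.38, 5.62, 8.03, 18.4 and 4.73 CPM in cortex PBS, at 8.60, 7.67, 14.7, 8.92 and 10.5 CPM in pCtrl and at 24.1, 1.41, 11.4 and 18 CPM in α-IgLON5. In hippocampus it was at 6.58, 10.5, 9.00, 14.6 and 3.74 CPM in PBS, at 15.1, 13.2, 12.9 and 13.1 CPM in pCtrl and at 29.9, 3.38, 7.88 and 23.3 CPM in α-IgLON5. The groups overlap in both tissues, with both libraries numbered 9 lowest.

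Col4a1, the α1 chain of the common type IV network, differed less between libraries. It was at 55.5, 52.5, 54.3, 73.0 and 46.2 CPM in cortex PBS, at 48.7, 48.6, 59.6, 59.0 and 40.3 CPM in pCtrl and at 80.8, 55.7, 72.1 and 61.4 CPM in α-IgLON5. In hippocampus the PBS libraries were at 68.7, 69.5, 59.8, 78.7 and 59.3 CPM, the pCtrl libraries at 68.2, 62.4, 59.4 and 54.1 CPM and the α-IgLON5 libraries at 100.2, 79.1, 78.5 and 79.6 CPM. All 4 hippocampus α-IgLON5 values lie above all 4 pCtrl values, whereas 1 PBS library, number 38, reaches the lowest of them.

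Col4a2, the α2 chain that joins 2 α1 chains in each type IV molecule, was at 56.6, 53.8, 54.8, 72.8 and 57.2 CPM in cortex PBS, at 50.5, 58.5, 63.3, 67.1 and 45.2 CPM in pCtrl and at 80.4, 63.7, 78.4 and 66.5 CPM in α-IgLON5. In hippocampus it was at 79.7, 73.5, 70.1, 87.9 and 66.5 CPM in PBS, at 71.1, 67.9, 62.0 and 60.9 CPM in pCtrl and at 104, 92.3, 88.2 and 87.5 CPM in α-IgLON5. The hippocampus α-IgLON5 and pCtrl values do not overlap, and PBS number 38 again reaches the α-IgLON5 range. Per kilobase of exon, the ratio of Col4a1 to Col4a2 stayed between 0.715 and 0.892 over all cortex and 0.757 and 0.855 over all hippocampus libraries.

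Col18a1, whose product carries the endostatin fragment, was the third basement membrane gene followed in every library. It was at 4.79, 5.88, 7.39, 11.4 and 7.12 CPM in cortex PBS, at 7.23, 6.34, 8.15, 8.11 and 7.35 CPM in pCtrl and at 11.6, 3.83, 8.76 and 11.1 CPM in α-IgLON5. In hippocampus it was at 7.88, 8.91, 8.21, 11.2 and 6.97 CPM in PBS, at 9.71, 9.48, 8.19 and 10.8 CPM in pCtrl and at 15.8, 6.59, 6.90 and 13.9 CPM in α-IgLON5. Its order over libraries resembled that of Col1a1 more than that of Col4a1, with number 9 lowest in cortex and in hippocampus.

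**Figure D1:**
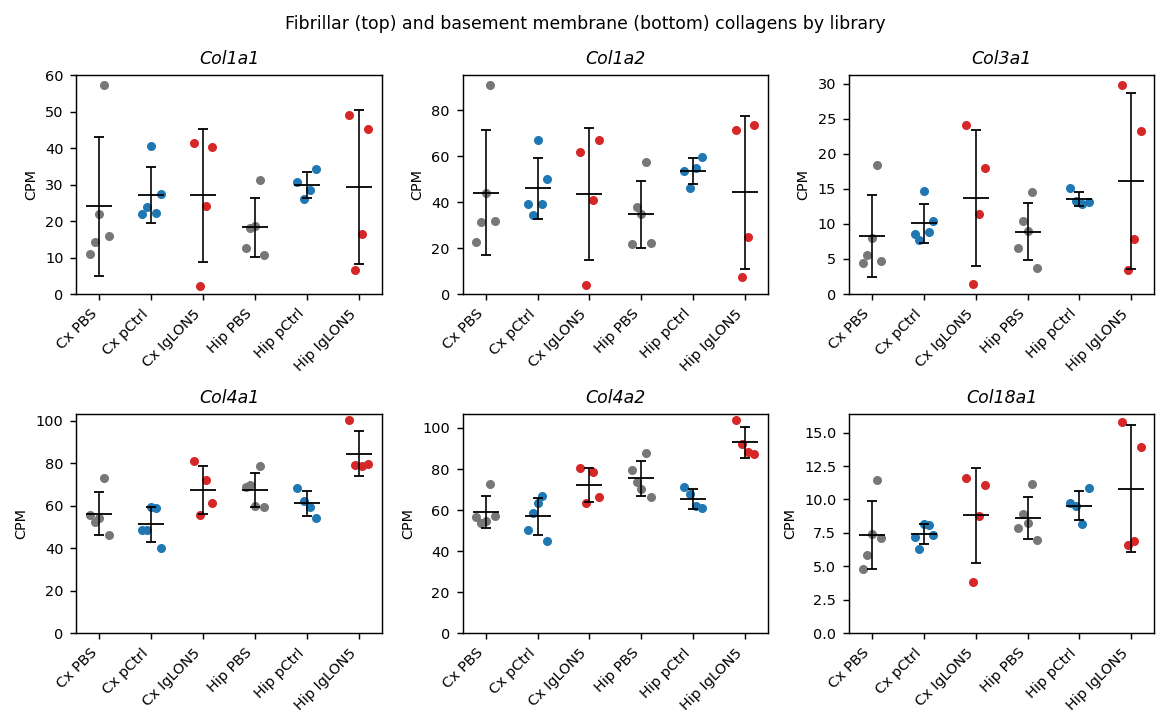
CPM (y axis) of 3 fibrillar (top) and 3 basement membrane collagens (bottom) in each library, by tissue (Cx, cortex; Hip, hippocampus) and infusion; points are libraries, and the horizontal line and bars are the mean ± SD of each group. Col1a1, Col1a2 and Col3a1 spread widely within groups, and the 4 hippocampus α-IgLON5 values of Col4a1 (78.5 to 100.2 CPM) and Col4a2 (87.5 to 104 CPM) lie above the pCtrl values.

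The amount of meningeal tissue in each library was gauged by the summed CPM of 16 fibroblast markers of the meninges, none of them a collagen, among them the solute carriers Slc6a13, Slc22a6, Slc13a4 and Slc47a1 and the transcription factors Foxc1 and Foxd1. The sum differed 6.05-fold between cortex libraries and 5.70-fold between hippocampus libraries. Dcn (decorin), which was higher in PBS hippocampus than in PBS cortex (91.2 ± 44.8 against 45.2 ± 8.27 CPM, n = 5 and 5, adjusted p = 0.0100), contributed 9.41% to 74.4% of the sum in cortex and 20.9% to 48.7% in hippocampus. Over cortex libraries, Slc47a1 ranged from 0.217 to 36.95 CPM and Slc22a6 from 0.902 to 42.5 CPM.

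The meningeal level was compared between the groups with few libraries in each. In hippocampus it was 7.68 on the log2 scale in α-IgLON5, 8.46 in pCtrl and 7.96 in PBS, and in cortex it was 7.94, 8.07 and 8.10. The largest difference of means, -0.77 (log2) between hippocampus α-IgLON5 and pCtrl (n = 4 and 4), had p = 0.286 in a two-sided exact permutation test and 0.857 after Benjamini-Hochberg adjustment over 9 comparisons. With 4 against 4 libraries the smallest p that this test can give is 0.0286 (0.257 if adjusted as the only small one of 9), so a large difference could also have missed the threshold. In the same comparison 1 of the 16 markers had a log2 fold change above 0, the median was -0.49, and none was called by edgeR. Without the hippocampus library numbered 9 the difference of means shrank to -0.25. The smallest p over the 9 comparisons was 0.0635 (adjusted 0.571), for cortex against hippocampus in pCtrl (-0.38 on the log2 scale, n = 5 and 4).

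Col1a1, Col1a2 and Col3a1 followed the meningeal level closely in both tissues. Over the 14 cortex libraries, Pearson's r of log2 CPM with the log2 marker sum was 0.951 for Col1a1 (Spearman's rho 0.903), 0.957 for Col1a2 (0.960) and 0.926 for Col3a1 (0.925). Over the 13 hippocampus libraries the values were 0.910 (0.852), 0.970 (0.879) and 0.859 (0.742). In permutation tests with 100000 draws, the adjusted p over 12 relations was at most 0.000103 for r and 0.00821 for rho in these 6 relations, and 2e-05 is the smallest adjusted p that the draws gave here. Without the 2 libraries farthest from the median marker level (numbers 9 and 38 in cortex, 9 and 14 in hippocampus), r stayed between 0.812 and 0.928. In hippocampus, the rho of Col3a1 was then 0.582 (adjusted permutation p = 0.0977).

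The type IV pair did not show this relation in the same test. Col4a1 had r = 0.384 (rho 0.521) in cortex and -0.104 (rho -0.0385) in hippocampus, and Col4a2 had 0.272 (rho 0.411) and -0.255 (rho -0.214), with adjusted permutation p of 0.232 and 0.730 for the r of Col4a1 and 0.424 and 0.449 for the r of Col4a2. When each library was expressed as its deviation from its group mean, r of Col4a1 became 0.561 in cortex (adjusted permutation p = 0.0461, rho 0.393 with adjusted p = 0.219) and 0.376 in hippocampus (adjusted permutation p = 0.225). Col18a1 correlated with the meningeal level at 0.916 in cortex and 0.702 in hippocampus (adjusted permutation p = 2e-05 and 0.0112).

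**Figure D2:**
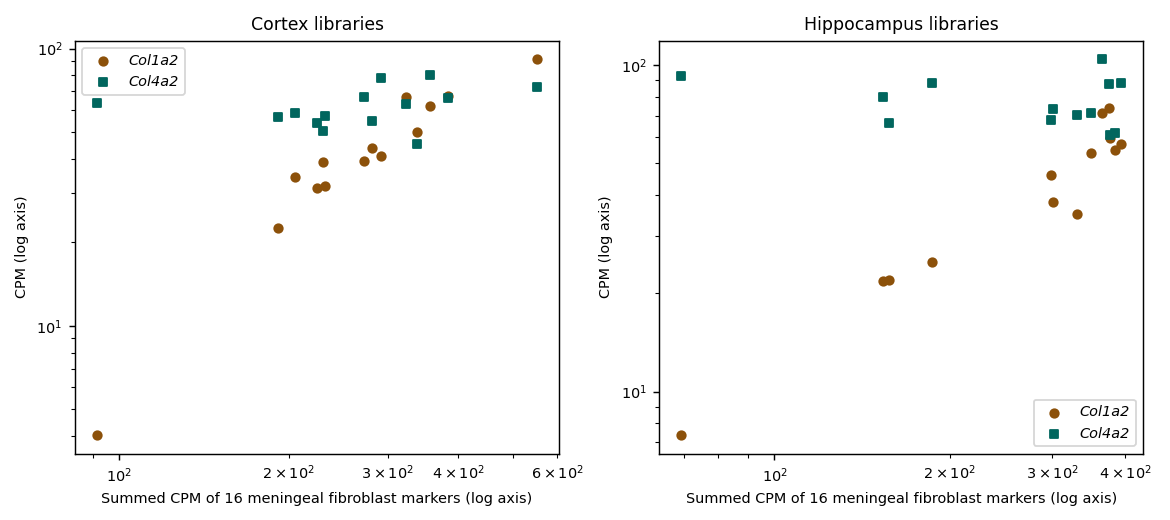
CPM of Col1a2 (brown circles) and Col4a2 (green squares) against the summed CPM of 16 meningeal fibroblast markers, both axes logarithmic, 1 point per library and gene, in 14 cortex (left) and 13 hippocampus libraries (right). Col1a2 runs from 4.04 to 91.3 CPM along the marker sum in cortex (r = 0.957), whereas Col4a2 stays between 45.2 and 80.4 CPM there (r = 0.272).

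The division did not follow the structural classes. Pearson's r with the meningeal level was above 0.8 in both tissues for 10 of the 44 collagens (22.7%), compared with 1.05% of all 20271 tested genes. Besides the trio, these were Col4a5 (0.936 and 0.864) and Col4a6 (0.935 and 0.828) of basement membranes, Col13a1 (0.948 and 0.953), a transmembrane collagen, the fibril-associated Col9a2 (0.942 and 0.975) and Col12a1 (0.869 and 0.931), Col6a2 (0.872 and 0.916) of beaded filaments and Col8a2 (0.877 and 0.858), a network former. Of the 11 fibrillar members 3 passed this mark, and of the 8 basement membrane members 2.

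The other fibrillar members had a range of correlations, and of all 11 fibrillar members 4 were over 0.8 in cortex and 3 in hippocampus. Col5a2 had r of 0.836 in cortex and 0.0271 in hippocampus, and Col11a2 0.628 and -0.37. Col5a1 had r of 0.371 in cortex and 0.693 in hippocampus, Col11a1 0.138 and -0.513, Col5a3 0.148 and -0.371, and Col27a1 0.542 and -0.221. Col9a3, which encodes a chain of the same type IX molecule as Col9a2, had 0.699 in cortex and -0.640 in hippocampus. Col15a1 of basement membranes had 0.0842 and -0.344, and Col25a1, a transmembrane collagen of neurons, 0.0960 and -0.237. These r share libraries and depth between genes and are given as descriptions.

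**Figure D3:**
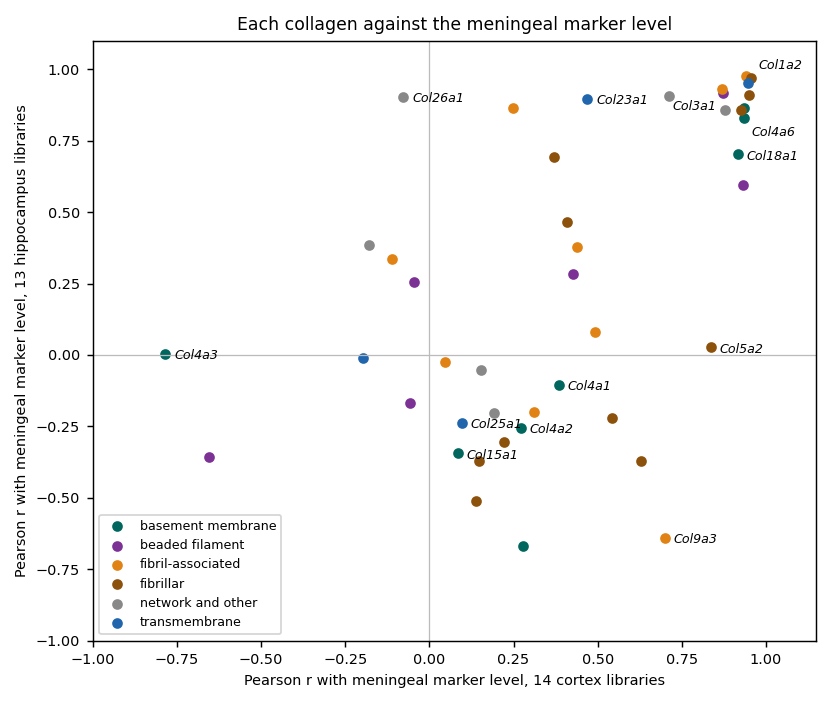
Pearson's r of each of the 44 collagens with the meningeal marker level in 14 cortex libraries (x axis) and 13 hippocampus libraries (y axis), 1 point per gene, coloured by structural class. In the upper right corner 10 genes of all 6 classes lie above 0.8 on both axes, while Col4a1 (0.384, -0.104) and Col4a2 (0.272, -0.255) lie away from it.

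The vascular markers also varied with the meningeal level. The summed CPM of 12 endothelial markers had r = 0.852 with it in cortex and 0.677 in hippocampus, that of 9 pericyte markers 0.916 and 0.879, and that of 5 smooth muscle markers 0.794 and 0.812. Their range was smaller, however: the endothelial sum was 204 to 282 CPM in cortex and 221 to 342 CPM in hippocampus, a 1.38-fold and 1.55-fold difference between the extremes. In both libraries numbered 9 the endothelial sum was 204 and 225 CPM, the lowest of the cortex and the second lowest of the hippocampus libraries. With the endothelial markers, r in cortex and hippocampus was 0.899 and 0.792 for Col1a1, 0.939 and 0.782 for Col1a2 and 0.815 and 0.741 for Col3a1. It was 0.161 and 0.11 for Col4a1 and -0.012 and -0.0334 for Col4a2. Meningeal and vascular content were not separated in these correlations.

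After removal of group means, genes varied together over the 27 libraries in a way that set Col1a1 and Col4a1 apart. Col1a1 had r = 0.989 with Col1a2, 0.982 with Col3a1, 0.920 with Col4a6 and 0.909 with Col4a5, and 0.556 with Col4a1. Col4a1 had r = 0.911 with Col4a2, 0.578 with Col18a1 and 0.398 with Col15a1. Of the head-to-head pairs, Col4a5 and Col4a6 had r = 0.916, and Col4a3 and Col4a4, both at low level, -0.0839. The reads of Col4a1 and Col4a2 come from opposite strands, and libraries were made with a stranded kit, but the strand setting of the counting is not given in the sources used here.

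The 10 genes outside the collagen family most like Col1a1 by this measure were Bgn (biglycan, r = 0.977), Nid1 (nidogen-1, 0.972), Pcolce, an enhancer of procollagen processing (0.972), Efemp1 (0.971), Foxd1 (0.969), Alx4 (0.968), Islr (0.966), Thbd (0.964), Zic4 (0.964) and Ptgdr (0.964). Foxd1 and Islr are in the meningeal list, and Nid1 is itself a basement membrane protein. The 10 most like Col4a1 had lower r: Iqgap1 (0.826), Nos3, the nitric oxide synthase of endothelium (0.822), Trim47 (0.814), Bag3 (0.806), Lipe (0.801), Rhoj (0.793), Myh9, a non-muscle myosin (0.785), Prdm16 (0.779), Osbpl9 (0.764) and Rmst (0.762). None of these 10 is in a marker list used here.

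The α-IgLON5 infusion was compared with pCtrl in hippocampus to ask which collagens changed with the antibody. In edgeR's quasi-likelihood test over all genes, with Benjamini-Hochberg adjustment, 4 of 44 collagens were called at an adjusted p below 0.05, beside 7.01% of all 20271 tested genes. All 4 were higher in α-IgLON5: Col4a1, Col4a2 and Col15a1 of basement membranes, and Col9a3 of cartilage-type fibrils. The median log2 fold change was 0.32 over the 8 basement membrane members and 0.25 over the 11 fibrillar members, none of which was called, compared with 0.00125 over all tested genes. Of all 44, 23 had a log2 fold change above 0.

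Col4a2 averaged 93.0 ± 7.62 CPM (SD, n = 4) in α-IgLON5 and 65.5 ± 4.83 CPM (n = 4) in pCtrl, a log2 fold change of 0.50 ± 0.11 (SE, adjusted p = 0.00627). Col4a1 averaged 84.4 ± 10.5 and 61.0 ± 5.86 CPM, a log2 fold change of 0.47 ± 0.13 (adjusted p = 0.0349). The rise of the Col4a1 and Col4a2 transcripts was therefore about 1.38-fold and 1.42-fold.

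Col15a1, whose product bridges basement membranes and the matrix beside them, was at 8.61, 10.4, 6.86 and 7.05 CPM in the α-IgLON5 libraries numbered 8, 9, 16 and 17, and at 6.76, 5.47, 4.43 and 5.67 CPM in pCtrl. The groups do not overlap, and the difference was 0.55 ± 0.15 on the log2 scale (adjusted p = 0.0262). In PBS libraries it was at 5.94, 5.56, 6.63, 6.92 and 4.64 CPM. Number 9, the α-IgLON5 library with the fewest meningeal markers, holds the highest Col15a1 value.

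Col9a3 was at 14.0, 18.8, 15.8 and 15.0 CPM in α-IgLON5 and at 14.0, 11.8, 11.1 and 11.4 CPM in pCtrl. The highest pCtrl and the lowest α-IgLON5 library coincide, and the log2 fold change was 0.39 ± 0.12 (adjusted p = 0.0466). This gene lies at the edge of the threshold, and 7 of 8 fits without a single library placed it above 0.05. Tcfl5 overlaps Col9a3 on the other strand.

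Of these 4 genes, only Col4a2 stayed below 0.05 without each library in turn (adjusted p from 0.00689 to 0.0351). Col4a1 was lost in 4 of 8 such fits (up to 0.153, without α-IgLON5 number 8 or 9 or pCtrl number 37 or 75), and Col15a1 in 3 of 8 (up to 0.144, without α-IgLON5 number 8 or 9 or pCtrl number 37). Without both libraries numbered 9, log2 fold changes were 0.49 for Col4a1 (adjusted p = 0.0600), 0.51 for Col4a2 (0.0192), 0.42 for Col15a1 (0.154) and 0.31 for Col9a3 (0.199). No collagen was called when only libraries numbered 8 to 17 were used (2 pCtrl hippocampi), beside 56 of 19450 tested genes. Log2 fold changes were then 0.37 for Col4a1 and 0.42 for Col4a2.

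The type I and type III chains were not called in this comparison. Col1a1 averaged 29.4 ± 21 CPM (SD, n = 4) in α-IgLON5 and 29.9 ± 3.50 CPM (n = 4) in pCtrl (log2 fold change -0.02 ± 0.57), and Col3a1 16.1 ± 12.5 and 13.5 ± 1.02 CPM (0.25 ± 0.57). With such a standard error, a change of the size seen for Col4a1 would not have been detectable. Col1a2 had -0.26 ± 0.56 and Col18a1 0.18 ± 0.28.

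The 16 meningeal markers were also added to the fit as a covariate, as the mean of their log2 CPM and not the log2 of their sum. With this covariate, standard errors of the meningeal genes fell and 6 of 44 collagens were called, all higher in α-IgLON5, beside 5.58% of all tested genes. Col4a1 was then at 0.58 ± 0.13 (adjusted p = 0.00513), Col4a2 at 0.57 ± 0.11 (0.00204) and Col15a1 at 0.54 ± 0.16 (0.0489). The others were Col3a1 at 0.85 ± 0.18 (0.00474), Col1a1 at 0.63 ± 0.19 (0.0473) and Col18a1 at 0.51 ± 0.15 (0.0385), while Col9a3 had an adjusted p of 0.0746 and Col1a2 of 0.159. The covariate was measured in the same libraries, and both libraries numbered 9 have its lowest values.

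Markers of other cells of the tissue were examined in the same comparison. Of 5 microglial markers 4 were called higher in hippocampus α-IgLON5 against pCtrl, and their sum was 357 to 625 CPM, against 278 to 317 CPM in pCtrl. The astrocyte marker sum was 2056 to 2821 CPM against 1681 to 1931 CPM, with 1 of 5 markers called, Gfap (log2 fold change 1.31 ± 0.27). Of 6 neuronal markers 1 was called, Tubb3, a neuronal tubulin, lower in α-IgLON5 (-0.34 ± 0.09, adjusted p = 0.0269), and none of 5 oligodendrocyte markers was called, with all 5 log2 fold changes below 0 and a median of -0.28. Of the vascular markers, 1 of 12 endothelial genes was called, Emcn (0.55 ± 0.16), and none of 9 pericyte and 5 smooth muscle genes. The endothelial sum was 225 to 342 CPM in α-IgLON5 and 274 to 308 CPM in pCtrl. Among the hippocampal markers, Grik4 was also called higher in α-IgLON5 (0.72 ± 0.16), and the pCtrl libraries numbered 10 and 37 were lowest for the sum of these markers. The part of the glial, vascular and regional markers in the collagen differences was not tested.

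**Figure D4:**
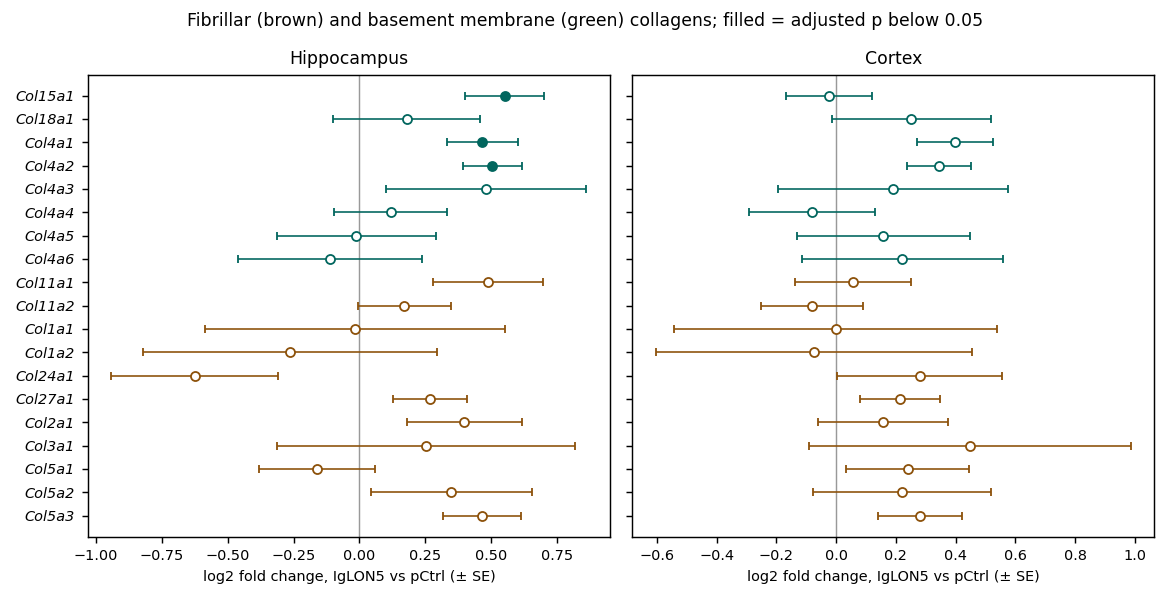
Log2 fold change ± SE of α-IgLON5 against pCtrl for the 8 basement membrane (green) and 11 fibrillar collagens (brown), in hippocampus (left) and cortex (right), with separate x axes; filled points have an adjusted p below 0.05. Col4a1 (0.47), Col4a2 (0.50) and Col15a1 (0.55) are filled in hippocampus, no point is filled in cortex, and Col1a1, Col1a2 and Col3a1 have the widest bars.

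Against PBS, which shares the α-IgLON5 libraries with the comparison above, 1 of 44 collagens was called in hippocampus, beside 4.29% of all tested genes. This was Col9a3, at 15.9 ± 2.08 CPM (SD, n = 4) in α-IgLON5 and 12.1 ± 2.15 CPM (n = 5) in PBS (log2 fold change 0.40 ± 0.12, adjusted p = 0.0439), with PBS values of 15.7, 11.3, 10.1, 11.7 and 11.4 CPM that overlap the α-IgLON5 range. It was lost in 7 of 9 fits without a single library. Col4a1 had 0.33 ± 0.13 (adjusted p = 0.181), Col4a2 0.30 ± 0.11 (0.127) and Col15a1 0.47 ± 0.14 (0.0655). With the meningeal covariate 5 collagens were called, all higher, beside 4.84% of all genes: Col3a1 (0.95 ± 0.17, adjusted p = 0.000484), Col1a1 (0.78 ± 0.17, 0.0055), Col9a3 (0.40 ± 0.12, 0.0469), Col4a5 and Col16a1.

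Between pCtrl and PBS in hippocampus none of the 44 collagens was called by edgeR, beside 0.192% of all tested genes. At an unadjusted p below 0.05 there were 6, beside 2828 of all 20271 genes, and DESeq2, which gave no adjusted p for 2 of the 44, called 3, beside 538. Col4a1 was at -0.14 ± 0.13, Col4a2 at -0.20 ± 0.11, Col1a1 at 0.70 ± 0.54 and Col3a1 at 0.61 ± 0.54. The meningeal fibroblast markers were all 16 on the pCtrl side in this comparison, with a median log2 fold change of 0.47 and none called.

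In cortex, none of the 44 collagens was called by edgeR between α-IgLON5 and pCtrl, beside 3.46% of all tested genes. At an unadjusted p below 0.05 there were 8, beside 3116 of all 20271 genes, and DESeq2 called 2, beside 917. Col4a1 averaged 67.5 ± 11.2 CPM (SD, n = 4) in α-IgLON5 and 51.2 ± 8.08 CPM (n = 5) in pCtrl (log2 fold change 0.40 ± 0.13, adjusted p = 0.0931), and Col4a2 72.2 ± 8.38 and 56.9 ± 9.03 CPM (0.34 ± 0.11, adjusted p = 0.0769). With the meningeal covariate these 2 genes were called, at 0.45 ± 0.11 (adjusted p = 0.0201) and 0.37 ± 0.10 (0.0318), beside 4.39% of all genes. Without both libraries numbered 9 they were at 0.48 (0.0518) and 0.40 (0.0610).

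The remaining cortex comparisons called no collagen by edgeR either. For α-IgLON5 against PBS, beside 3.05% of all tested genes, 3 collagens had an unadjusted p below 0.05, beside 1877 genes in all, and DESeq2 called 0, beside 693. Col4a1 was at 0.26 ± 0.13 and Col4a2 at 0.29 ± 0.11. With the meningeal covariate only Col3a1 was called, at 0.93 ± 0.17 (adjusted p = 0.000954), beside 3.54% of all genes. For pCtrl against PBS, 0% of all tested genes were called by edgeR, 4 collagens had an unadjusted p below 0.05, beside 1650 genes in all. DESeq2 gave no adjusted p for 38 of the 44 collagens in this comparison and called none of the others, beside 11 genes in all.

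Whether the response to α-IgLON5 against pCtrl differed between the tissues was tested as an interaction, for which 0 of 44 collagens and 0% of all genes were called by edgeR, and 4 collagens had an unadjusted p below 0.05, beside 2158 genes. DESeq2 gave no adjusted p for 29 of the 44 collagens and called none of the others, beside 36 genes in all. For Col4a1 the hippocampus difference exceeded that of cortex by 0.07 ± 0.19 and for Col4a2 by 0.16 ± 0.15 (log2). For Col15a1 it was larger by 0.57 ± 0.21 (adjusted p = 0.300) and for Col9a3 by 0.38 ± 0.17 (adjusted p = 0.418). A call in hippocampus only is therefore not a tested difference between the tissues.

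The machinery that makes and remodels collagen was examined through 4 further lists. Of 30 genes for collagen synthesis and crosslinking, 5 were called higher and none lower in hippocampus α-IgLON5 against pCtrl, beside 857 higher and 563 lower of all 20271 tested genes, and the median log2 fold change was 0.13. The largest were Adamts14, which trims procollagen ends (1.92 ± 0.34 against 0.618 ± 0.254 CPM, log2 fold change 1.64 ± 0.35, adjusted p = 0.00451), Bmp1, a procollagen C-proteinase (0.61 ± 0.15, adjusted p = 0.0118), and Adamts3 (0.45 ± 0.12, adjusted p = 0.0226). Adamts14 was also lower in pCtrl than in PBS (-1.74 ± 0.33, adjusted p = 0.0433), where it averaged 2.03 ± 1.22 CPM, so that its α-IgLON5 level lies near that of PBS. In PBS it was higher in hippocampus than in cortex (0.345 ± 0.0609 CPM), as were Adamts3 and Bmp1. The sum of the hippocampal markers averaged 669 CPM in pCtrl hippocampus, 864 CPM in PBS and 799 CPM in α-IgLON5. Its part in the calls of Adamts14, Adamts3 and Bmp1 was not tested.

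Against PBS in hippocampus, where 4.29% of all genes were called, 3 genes of this list were called, all higher: Lox (lysyl oxidase, which crosslinks fibrils, 1.70 ± 0.44, adjusted p = 0.0221), Plod1 (0.41 ± 0.09, adjusted p = 0.00560) and Plod3 (0.27 ± 0.07, adjusted p = 0.0232), the last 2 being lysyl hydroxylases. Plod1 (0.32 ± 0.10, adjusted p = 0.0459) and Plod3 (0.28 ± 0.08, adjusted p = 0.0264) were also called higher against pCtrl, from the same α-IgLON5 libraries. Lox was the single gene of the list called in cortex, at 4.15 ± 3.77 CPM (n = 4) in α-IgLON5, 1.27 ± 0.472 in pCtrl and 1.19 ± 0.823 in PBS, with log2 fold changes of 1.68 ± 0.44 and 1.81 ± 0.45.

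The counts for the other lists stand beside 7.01% of all genes called in hippocampus against pCtrl and 4.29% against PBS, and 3.46% and 3.05% in cortex. Of 11 tested genes for collagen breakdown, Timp1, an inhibitor of matrix proteases, was called higher in hippocampus α-IgLON5 against pCtrl (2.11 ± 0.60, adjusted p = 0.0313) and PBS (2.42 ± 0.57, 0.00974), at 4.05 ± 4.58 CPM (n = 4), so that its libraries differ widely. Mmp2, a gelatinase that also cleaves type IV collagen, was called higher in hippocampus against PBS (4.98 ± 0.725 against 3.07 ± 0.281 CPM, 0.69 ± 0.14, adjusted p = 0.00179) and in cortex against pCtrl (0.49 ± 0.14, adjusted p = 0.0447). Of 8 tested collagen receptors, 1 was called, Lair1, an inhibitory receptor of immune cells, higher in hippocampus against pCtrl (0.64 ± 0.17, adjusted p = 0.0232) and PBS (0.69 ± 0.16, 0.00980). Of 14 other basement membrane proteins (laminins, nidogens and the like), none was called by edgeR in any of the 4 α-IgLON5 comparisons, and their median log2 fold change in hippocampus against pCtrl was -0.04.

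Glial markers were also called in the comparisons of these lists. In hippocampus against PBS, 4 of 5 microglial markers were called higher, with a median log2 fold change of 0.85 and a summed level of 357 to 625 CPM in α-IgLON5 and 249.9 to 307 CPM in PBS. In cortex none of the 5 was called against pCtrl by edgeR and 1 against PBS, Cx3cr1 (0.56 ± 0.13), with sums of 341 to 376 CPM in α-IgLON5, 280 to 340 CPM in pCtrl and 278 to 299.7 CPM in PBS. Gfap of astrocytes was called higher in hippocampus against PBS (1.37 ± 0.25) and in cortex against pCtrl (1.46 ± 0.25) and PBS (1.39 ± 0.25). Of 6 cortical markers 1, Rorb, was called lower in cortex against pCtrl (-0.51 ± 0.13). The part of these cells in the calls of Lox, Plod1, Plod3, Timp1, Mmp2 and Lair1 was not tested.

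The tissues were compared within each infusion, in 3 comparisons that share no library. In PBS, 14 of 44 collagens were called between cortex and hippocampus, 6 higher and 8 lower in cortex, beside 26.7% of all tested genes. In pCtrl there were 8 (4 higher), beside 19.9%, and in α-IgLON5 15 (6 higher), beside 23.9%. In all, 21 collagens were called in at least 1 of the 3 comparisons, and 5 in all 3. The matching counts over all genes were not made, so both numbers stand without a background.

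The 5 were Col25a1, Col26a1, Col8a1, Col24a1 and Col20a1. Col25a1 was at 32.4, 47.1, 40.0, 42.2 and 43.5 CPM in the PBS cortex libraries and at 93.1, 107.7, 98.0, 87.8 and 105.8 CPM in PBS hippocampus. The tissues do not overlap, and the log2 difference, cortex minus hippocampus, was -1.26 ± 0.11 (adjusted p = 6.79e-09), -1.08 in pCtrl and -1.03 in α-IgLON5. In hippocampus pCtrl it spanned 48.5 to 88.7 CPM. Col26a1 was at 8.58, 9.02, 11.4, 9.43 and 8.00 CPM in PBS cortex and at 3.85, 5.15, 4.96, 5.31 and 3.32 CPM in PBS hippocampus, again without overlap (1.04 ± 0.19, adjusted p = 0.000147).

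Col8a1, a network former of vessel walls and of Descemet's membrane, was at 4.23, 5.85, 6.52, 10.6 and 5.77 CPM in PBS cortex and 0.989, 3.02, 2.55, 2.58 and 1.46 CPM in PBS hippocampus (1.62 ± 0.32, adjusted p = 0.000365). Col24a1, a minor fibrillar chain, was at 7.23, 6.65, 5.01, 13.4 and 6.93 CPM in PBS cortex and 3.72, 3.33, 2.64, 2.64 and 2.31 CPM in PBS hippocampus (1.42 ± 0.27, adjusted p = 0.000225). Neither gene overlapped between the tissues in PBS. Col20a1 averaged 7.16 ± 1.19 CPM in PBS cortex and 9.68 ± 1.74 CPM in PBS hippocampus (-0.43 ± 0.12, adjusted p = 0.00675).

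The others called higher in PBS cortex were Col10a1 (0.689 ± 0.342 against 0.123 ± 0.0288 CPM, log2 difference 2.44 ± 0.52), Col28a1 (1.30 ± 0.23) and Col5a1 (0.76 ± 0.20, with 62.6 ± 17.9 against 36.9 ± 9.60 CPM). Col10a1, the collagen of growth-plate cartilage, had only 301 counts in all libraries together. Of the 6 collagens of other networks and structures 4 were called higher in PBS cortex (Col8a1, Col10a1, Col26a1 and Col28a1), with a class median of 1.17 on the log2 scale. Those called lower were Col6a5 (-1.72 ± 0.38), Col4a3 (-0.92 ± 0.34), Col5a2 (-0.86 ± 0.28), Col4a4 (-0.73 ± 0.19), Col5a3 (-0.41 ± 0.13) and Col4a2 (-0.35 ± 0.10). Among the fibrillar chains, Col5a1 and Col24a1 were thus higher in cortex and Col5a2 and Col5a3 higher in hippocampus. The call of Col4a3 (adjusted p = 0.0469) was lost in 8 of 10 fits without a single library, where its adjusted p reached 0.158, and also without a count filter and with the meningeal covariate. Col5a2 and Col5a3 each lost the call in 4 of these 10 fits, and Col5a3 also without a count filter and with only the groups compared.

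All 8 basement membrane collagens were on the hippocampal side in PBS, 3 of them called, and the median log2 difference was -0.25, compared with -0.01 over all genes. In α-IgLON5 all 8 were again on that side with 2 called (Col4a2 and Col15a1), and in pCtrl 7 with none called. Col4a2 was at -0.36 ± 0.11 in α-IgLON5 (adjusted p = 0.0187) and at -0.20 ± 0.11 in pCtrl (0.195). Col1a1, Col1a2 and Col3a1 were not called between the tissues in any infusion, with log2 differences from -0.42 to 0.39 and standard errors from 0.50 to 0.57. Col15a1 and Col9a3 were called lower in cortex in α-IgLON5 (-0.46 ± 0.15 and -0.44 ± 0.12), where they had been called higher in hippocampus against pCtrl from the same libraries.

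**Figure D5:**
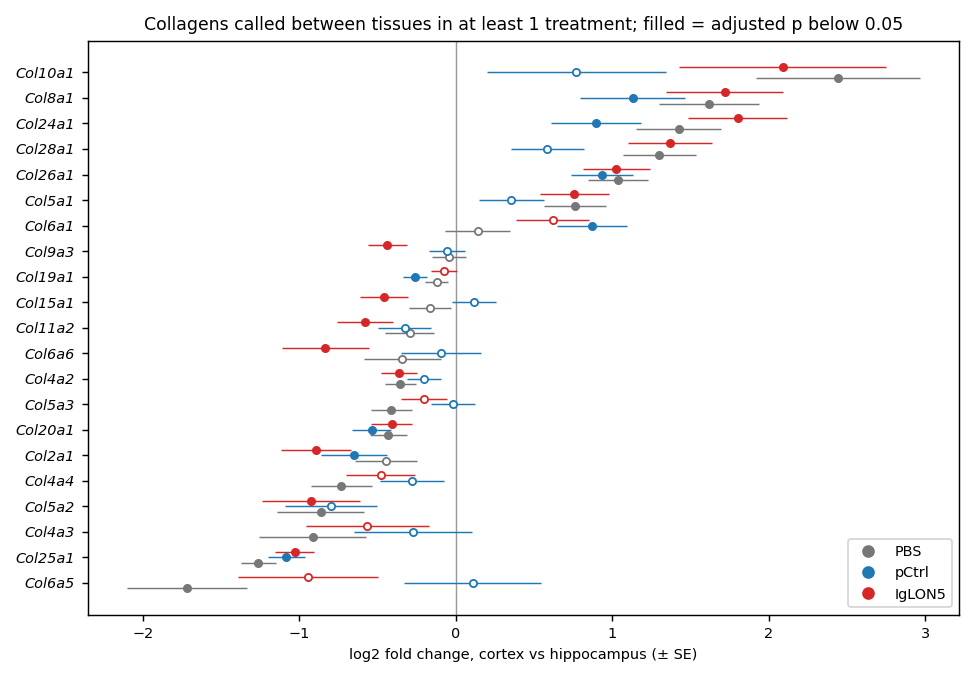
Log2 fold change ± SE of cortex against hippocampus within PBS (grey), pCtrl (blue) and α-IgLON5 (red) for the 21 collagens called in at least 1 of the 3 comparisons; filled points have an adjusted p below 0.05. Col25a1 lies near -1.26 in PBS and below -1 in every infusion, and Col8a1, Col24a1 and Col26a1 are filled to the right of 0 in every infusion.

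The lists around collagen were also compared between the tissues in PBS. Of the 30 synthesis genes 6 were called lower and none higher in cortex, beside 26.7% of all tested genes, led by Adamts14 (-2.57 ± 0.34), Plod2 (-0.61 ± 0.09) and Adamts3 (-0.56 ± 0.11). Of the other basement membrane proteins Lama4, a laminin chain of vessels, was higher in PBS cortex (1.02 ± 0.23, adjusted p = 0.00125), and Lamb1 (-0.90 ± 0.12) and Sparc (-0.52 ± 0.08), which binds collagen, were lower. In PBS, Timp4 was the single breakdown gene called (-0.41 ± 0.07), and no receptor was called by edgeR.

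Deviations from the group means were correlated between libraries of the same number in the 2 tissues, though not every number deviated in the same direction in both. Over the 13 numbers with both tissues, the meningeal marker level had r = 0.864 (rho 0.725, adjusted permutation p over 3 relations 0.00042 for r and 0.0154 for rho), Col1a2 0.909 (rho 0.692, 0.00042 and 0.0154) and Col4a1 0.690 (rho 0.665, 0.00961 and 0.0154). Leaving out the 2 numbers with the most extreme cortex value gave r of 0.711, 0.763 and 0.427, so that the relation of Col4a1 rests in good part on numbers 38 and 8. These 3 relations were added after the values had been seen.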

How the data were processed

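Stranded mRNA libraries of 27 samples were sequenced in paired-end mode, and the authors aligned the reads to GRCm38 with STAR; the counting program and its strand setting are not given in the sources used here. The deposited values are raw counts per gene and library, with no normalization. Gene names came from GENCODE M21 by identifier without version (55227 of 55487 rows matched). Genes reaching 10 counts in 4 or more libraries entered 1 test across all genes with edgeR 4.0.16 (TMM, quasi-likelihood F test, 6 groups, no covariate, Benjamini-Hochberg, call at an adjusted p below 0.05) in R 4.3.3. SE is the log2 fold change divided by the root of F. CPM use TMM-scaled totals and, on the log2 scale, about 1 added count. The steps were tested on simulated data. DESeq2 1.42.0 and other settings served as alternatives.

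The labels do not say that libraries came from separate mice, so p-values measure the spread between these samples. Collagens, lists and tests were chosen with earlier results of these data known. Named by rule were 6 fibrillar and basement membrane genes, other collagens called, at most 8 per direction for PBS tissues, 3 list genes per comparison and direction, and the 10 genes most like Col1a1 and Col4a1. Cx3cr1, Emcn, Gfap, Grik4, Rorb, Tubb3, the other marker examples and further collagens named for a level or a correlation were chosen after their values were seen. The same holds for Plod1 and Plod3 against pCtrl.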

Additional observations from a re-analysis of the deposited data

Results flagged for a closer look

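A single library stood apart from the others of its group in 8 of 78 groups of values examined for an extreme value. By the 95% critical value used, chance alone flags about 1 in 20 such groups, and the 78 are not independent, since they share libraries. Of the 8, 6 concern the PBS cortex library numbered 38. It was highest for Col1a1 (57.4 CPM, others 10.9 to 22), Col3a1 (18.4 CPM, others 4.38 to 8.03) and Col4a2 (72.8 CPM, others 53.8 to 57.2), for the summed fibrillar collagens (368 CPM, others 166 to 180) and basement membrane collagens (184 CPM, others 124 to 134), and for the meningeal markers (553 CPM, others 192 to 282). In hippocampus, Col3a1 was highest in the pCtrl library numbered 10 (15.1 CPM, others 12.9 to 13.2), and Col4a1 in the α-IgLON5 library numbered 8 (100 CPM, others 78.5 to 79.6).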

How the results depend on the processing

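With a fold change above 2 also required, 0 were called in hippocampus for α-IgLON5 against pCtrl and 0 against PBS, and 7, 2 and 6 between the tissues in PBS, pCtrl and α-IgLON5. Fits with only the groups compared called 2 of 42 collagens for hippocampus α-IgLON5 against pCtrl, beside 391 of 18749 genes. Between the pCtrl tissues they called 15 of 42, beside 4250 of 18742 genes. With libraries numbered 8 to 17 only, 0 of 43 were called for hippocampus α-IgLON5 against pCtrl, beside 56 of 19450 genes. Without both libraries numbered 9, a setting chosen after seeing the data, the counts were 1 (hippocampus against pCtrl), 0 (against PBS) and 6 (α-IgLON5 tissues). Beside them, 641, 719 and 3425 of 20236 genes were called. Without a count filter, 0 collagens were called for hippocampus α-IgLON5 against PBS, 1 for hippocampus pCtrl against PBS and 2 for cortex α-IgLON5 against pCtrl. Beside them, 909, 106 and 709 of 40544 genes were called. With 10 counts in every library, 0 of 37 were called for hippocampus α-IgLON5 against PBS, beside 576 of 15430 genes. The meningeal covariate gave 5 (hippocampus against PBS, 981 of 20271 genes in all), 2 (cortex against pCtrl, 889) and 1 (cortex against PBS, 718). Between the tissues it gave 20 in PBS (5628 genes in all), 11 in pCtrl (4226) and 22 in α-IgLON5 (5088). DESeq2 gave 2 for hippocampus α-IgLON5 against PBS (1039 genes in all), 3 for hippocampus pCtrl against PBS (538) and 2 for cortex α-IgLON5 against pCtrl (917). Where the construction does not show it, the cause was not tested. Of 314 values of named genes under other settings, 257 kept their side of the threshold and 57 lost the call, with no change of sign.

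Without single libraries, the counts ranged from 1 to 5 (hippocampus α-IgLON5 against pCtrl, lowest without pCtrl 37, α-IgLON5 8 or α-IgLON5 9, and 2 without pCtrl 75), 0 to 2 (against PBS, 0 without PBS 32, 33 or 74 or α-IgLON5 9 and 2 without α-IgLON5 16), 0 to 3 (pCtrl against PBS, 3 without PBS 38 or pCtrl 15, 2 without pCtrl 75, 1 without PBS 14), 0 to 1 (cortex α-IgLON5 against pCtrl, 1 without pCtrl 37, α-IgLON5 8 or α-IgLON5 9), 0 to 2 (cortex against PBS, 2 without PBS 38), 0 to 0 (cortex pCtrl against PBS), 11 to 17 (PBS tissues), 5 to 9 (pCtrl tissues, 5 without hippocampus 15), 10 to 16 (α-IgLON5 tissues) and 0 to 0 (interaction). Over all genes, the hippocampus α-IgLON5 against pCtrl counts were 574 without pCtrl 37, 671 without α-IgLON5 8 and 640 without α-IgLON5 9. They were 724 without pCtrl 10 and 2090 without α-IgLON5 16, beside 1420 in the main fit. For pCtrl against PBS they were 339 without PBS 38 and 763 without pCtrl 15, beside 39 in the main fit. The difference in meningeal level (log2) ranged from -1.06 to -0.25 for hippocampus α-IgLON5 against pCtrl, -0.57 to 0.25 against PBS, 0.33 to 0.66 for pCtrl against PBS, -0.35 to 0.34 for cortex α-IgLON5 against pCtrl, -0.37 to 0.32 against PBS, -0.16 to 0.22 for pCtrl against PBS, and between the tissues -0.11 to 0.31 in PBS, -0.47 to -0.28 in pCtrl and -0.26 to 0.74 in α-IgLON5, with signs turned by PBS cortex 38, PBS hippocampus 14 or 74, pCtrl cortex 10 or 11 or a library numbered 9. As a mean of log2 CPM it was 0.0186 for cortex pCtrl against PBS, where the summed level gave -0.0285.

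The correlation of Col4a1 with the meningeal level in hippocampus turned positive with deviations from group means (0.376), library totals (0.119) and without the 2 extreme libraries (0.126), as did that of Col4a2 with deviations (0.211) and without the extremes (0.0637). In cortex that of Col4a1 passed the threshold with deviations (0.561). None of these signs is settled, since the main values were not past the threshold. Without Dcn in the marker list, also a setting added after seeing the data, all 12 correlations stayed on their side.

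With the library number as a replicate block, 18 collagens were called between PBS tissues, beside 5925 of all 20271 genes. There were 12 between pCtrl tissues (4043 genes in all), 21 between α-IgLON5 tissues (5449) and 0 for the interaction (2). Same-numbered libraries had correlated deviations over genes of -0.0498 to 0.443 (median 0.194), with 8 of 13 over 0.1, and 8 of 13 cortex libraries matched their own number best, which is a hint from the data. The numbers were to be taken as a pairing only with every correlation over 0.1, and were therefore left out of the main test.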
